A study of Mus musculus with 9 samples.

Results

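The genes described here are plasminogen activators, their receptor and 4 serpins: Plau, Plat, Plaur, Serpine2, Serping1, Serpinf1 and Serpinh1. Every non-control probe whose gene name on the array is one of these 7 symbols was taken, whatever its value. That gave 9 of the 55681 probes and 7 of the 36373 genes on the array. Plau, Plat, Plaur, Serpine2 and Serpinh1 have 1 probe each, and Serping1 and Serpinf1 have 2 each. All 9 probes passed the filter on dim signals, which kept 42983 probes.

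Expression was measured in satellite cells, the resident stem cells of skeletal muscle, sorted from FVB mice that were 2 months old and labelled male. The KO group came from Bmi1-deficient mice (6 arrays) and the WT group from wild type mice (3 arrays). Bmi1 is a Polycomb protein and takes part in keeping target genes silent. The gate took cells with integrin alpha-7 and CD34 on their surface and removed those with CD31, CD45, CD11b or Sca1. RNA of each sort was amplified before hybridisation, and each array gives 1 Cy3 signal per spot. The deleted part of Bmi1, any driver of the deletion, and whether animals were pooled are not stated in the labels. The genotype field of KO replicate 1 reads wild type, against its title, source and description, which all read KO. It was kept in the KO group.

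The descriptions give the same first number to 2 KO arrays at a time. Such arrays correlated at 0.9944 to 0.9956 over probes, against 0.9622 to 0.9786 for the 33 remaining combinations of 2 arrays. Each such pair was averaged and counted as 1 sample, so that 3 KO samples were compared with 3 WT samples. KO sample 1 is the mean of replicates 1 and 4, KO sample 2 of replicates 2 and 5, and KO sample 3 of replicates 3 and 6. Beyond the words for biological replicates in the titles, no label ties a sample to an animal of its own, and p-values may in part measure technical spread. The arrays lay on 2 slides, with KO replicates 2, 3 and 4 and WT replicates 1 and 3 on slide 1, and KO replicates 1, 5 and 6 and WT replicate 2 on slide 2. Each array had 59305 non-control spots, of which 71.9% to 75.8% rose well above background and none was saturated. The 2 Bmi1 probes were well above background on all 9 arrays, and the KO minus WT differences were 0.21 (adjusted p = 0.699 by limma) and 0.10 (adjusted p = 0.864 by limma), so neither was lower in KO samples. Whether either probe lies in the deleted part is not stated, so Bmi1 signal does not check the genotype labels. Cdkn2a, a known Polycomb target, averaged -0.77 ± 0.18 in KO samples and -4.05 ± 0.35 in WT samples (SD, n = 3 each, adjusted p = 0.0207 by limma) by probe A_55_P2008437. The other Cdkn2a probe, A_55_P2008438, was well above background on 1 KO array and 0 WT arrays. It did not pass the filter on dim signals, and its difference was 0.69.

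Plasminogen is turned into plasmin, a protease of fibrin and of pericellular matrix, by urokinase (Plau) and by tissue plasminogen activator (Plat). The urokinase receptor (Plaur) holds urokinase at the cell surface. Serpins are a family named for serine protease inhibitors, most of which trap a protease in an irreversible complex. Serpine2, protease nexin-1, inhibits thrombin, urokinase and tissue plasminogen activator, and Serping1 is the C1 inhibitor of the complement and contact systems. Serpinf1, the pigment epithelium-derived factor, and Serpinh1, the collagen chaperone HSP47 of the endoplasmic reticulum, belong to the family by sequence and do not inhibit proteases. In muscle, the urokinase system is known for its part in regeneration after injury.

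The first 30 of the 60 bases of each probe are printed 5′ to 3′ in lower case, because they define what each signal measures. Positions come from the array design, in mm9, per the file headers.
Plau A_52_P302433, chr14:21662242-21662301, plus strand: gtgtatttctgtatctaactgcaagtctag
Plat A_52_P409833, chr8:23892531-23892590, plus strand: aaggttacgaattacctagactggattcac
Plaur A_52_P681310, chr7:25260569-25260628, plus strand: ccctcgtgttgtcttctttggacctcagtt
Serpine2 A_51_P268094, chr1:79793476-79796093, minus strand: aagcaaaaattgaagtcagtgaagatggaa
Serping1 A_51_P376238, chr2:84605968-84607474, minus strand: gtaaagagcagccaagacatgctgtcagtc
Serping1 A_55_P1992889, chr2:84605663-84605722, minus strand: tgggtaaacattgtcacccaagcttcagct
Serpinf1 A_52_P35048, chr11:75229163-75229222, minus strand: tcgaacagagtctgtcattcaccgggctct
Serpinf1 A_55_P1973159, chr11:75223582-75223641, minus strand: acttaatgtctcagtgctctacagaacccc
Serpinh1 A_51_P287069, chr7:106493971-106494030, minus strand: ggggaggggaaatatgagcctttgttgctt
The Serpine2 probe and the first Serping1 probe span 2618 and 1507 bases of the genome, more than their 60 bases, so each lies across an exon junction of the spliced transcript. The other 7 probes lie in 1 unbroken stretch. Exon, intron and UTR annotations in mm9 were not used here.

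Values are log2 signals relative to the 75th percentile of the same array, so 0 is the signal of that percentile. Levels of different probes were not compared. Differences are KO minus WT on the log2 scale, with 95% intervals of the limma fit. A probe was called changed at an adjusted p under 0.05 over all 42983 kept probes, and the exact permutation test of 3 against 3 samples cannot go below 0.1. None of the 9 probes was called by limma, against 0.0489% of all kept probes (21 of 42983), which is 0.0465% higher and 0.00233% lower in KO. The difference was above 0 for 7 probes and below 0 for 2, against 48% and 52% of all probes. The Plaur probe, among the 7, was well above background on 3 KO arrays and 1 WT array, so its place there is tied to the filter. At an unadjusted p under 0.05 there were 4 of the 9 probes, 3 higher and 1 lower, against 10.7% of all probes (6.49% higher and 4.18% lower). KO and WT samples did not overlap for the same 4 probes, against 16.5% of all probes (8.58% higher and 7.94% lower). These were the Serpine2 probe, both Serping1 probes and the Serpinh1 probe. Since these samples are bulk sorts, fewer cells with a transcript and less of the transcript per cell cannot be told apart.

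**Figure D1:**
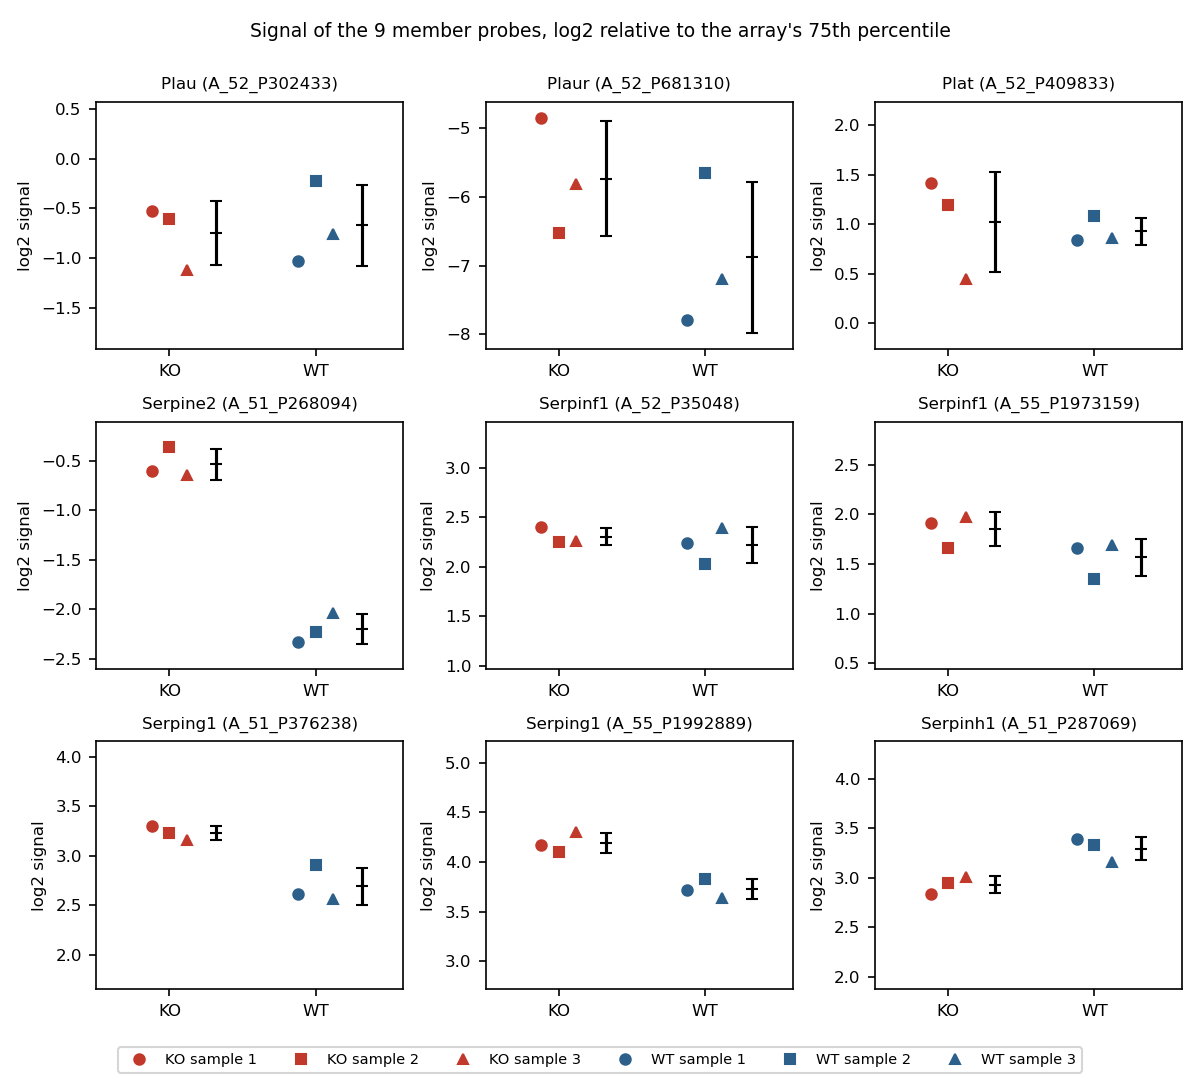
Log2 signal of each of the 9 probes relative to the 75th percentile of the array (y axis, each panel with its own range), for KO samples (red, left) and WT samples (blue, right), with the mean and SD of the 3 samples in black. Symbols mark the sample number. Serpine2 shows the clearest gap, from -0.65 to -0.36 in KO samples against -2.33 to -2.04 in WT samples, while Plau and Plat overlap between groups.

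The 2 activators overlapped between the groups. Plau, urokinase, was at -0.52, -0.61 and -1.12 in KO samples, against -1.03, -0.22 and -0.76 in WT samples. The WT samples covered a wider range than the KO samples did, and the difference of -0.08 ± 0.27 (SE, 95% interval -0.74 to 0.58) was smaller than the spread in either group (adjusted p = 0.956 by limma). Its sign differed between slides, with 0.20 within slide 1 and -0.59 within slide 2, where the single WT array is the WT sample with the highest Plau signal. Without that WT sample the Plau difference was 0.15, and without KO sample 3 it was 0.11.

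Plat, tissue plasminogen activator, was at 1.41, 1.20 and 0.45 in KO samples, against 0.84, 1.08 and 0.86 in WT samples. KO sample 3 lay below every WT sample, and the other KO samples lay above them. Plat therefore averaged 1.02 ± 0.51 in KO samples and 0.93 ± 0.13 in WT samples (SD, n = 3 each). The difference was 0.09 ± 0.27 (SE, 95% interval -0.57 to 0.75, adjusted p = 0.949 by limma), with 0.17 within slide 1 and -0.07 within slide 2. Both arrays of KO sample 3 gave the low Plat value, at 0.42 and 0.48, and the same sample was the lowest KO sample for Plau. Without KO sample 1 the Plat difference was -0.10. The intervals of both activators leave room for changes of somewhat over 0.5 log2 units either way.

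The receptor Plaur was the dimmest member against background. It was well above background on 3 of 6 KO arrays (replicates 1, 4 and 6) and on 1 of 3 WT arrays (replicate 2), and its processed value on WT replicate 1 is the scanner software's surrogate for a dim spot. Plaur was at -4.86, -6.53 and -5.82 in KO samples, against -7.79, -5.66 and -7.19 in WT samples. The groups overlapped, and KO arrays of 1 pair lay up to 1.03 log2 units apart. The difference of 1.15 ± 0.66 (SE, 95% interval -0.47 to 2.76) was not past the threshold (adjusted p = 0.623 by limma). It shrank to 0.19 with a normexp background correction and was -0.11 within slide 2, against 1.79 within slide 1. A direction for Plaur was therefore not detectable at this signal.

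Serpine2, protease nexin-1, had the largest difference among the 7 genes. Its signal was -0.60, -0.36 and -0.65 in KO samples, against -2.33, -2.23 and -2.04 in WT samples. Every KO sample was above every WT sample, and the gap between the groups was several times the range within either group. On the linear scale the 6 KO arrays held 62.9% to 78.5% of the 75th percentile signal, and the 3 WT arrays held 19.8% to 24.3%. Serpine2 averaged -0.54 ± 0.15 in KO samples and -2.20 ± 0.15 in WT samples (SD, n = 3 each), a difference of 1.66 ± 0.15 (SE, 95% interval 1.30 to 2.03). That is a 3.17-fold higher signal in KO samples (95% interval 2.46 to 4.09). The difference was 1.67 within slide 1 and 1.67 within slide 2.

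The adjusted p of Serpine2 was 0.0592 by limma (unadjusted 3.17e-05), just short of the threshold, and the probe ranked 23 of 42983 by p. With 1 probe a gene, where p was adjusted over 28365 features, the adjusted p was 0.0431 by limma and Serpine2 was called, beside 0.137% of all features (39 of 28365), which is 0.127% higher and 0.0106% lower in KO. In that fit 5 of the 7 genes had a difference above 0 and 2 below, against 47.1% and 52.9% of all features. Plaur, whose place is tied to the filter, is among the 5. The groups did not overlap for 2 genes that were higher and 1 that was lower, against 16.7% of all features (8.57% higher and 8.12% lower). The difference had the same size in both fits, with an unadjusted p of 2.43e-05 in the second. Leaving out any 1 sample kept the Serpine2 difference between 1.58 and 1.75 and ended the call in the fit of 1 probe a gene (adjusted p = 0.092 to 0.141 by limma). With the slide as a block in that fit, the adjusted p was 0.107 by limma. KO sample 1 taken from replicate 4 alone, without the array whose genotype field reads wild type, gave 1.68 (adjusted p = 0.0566 by limma over probes).

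**Figure D2:**
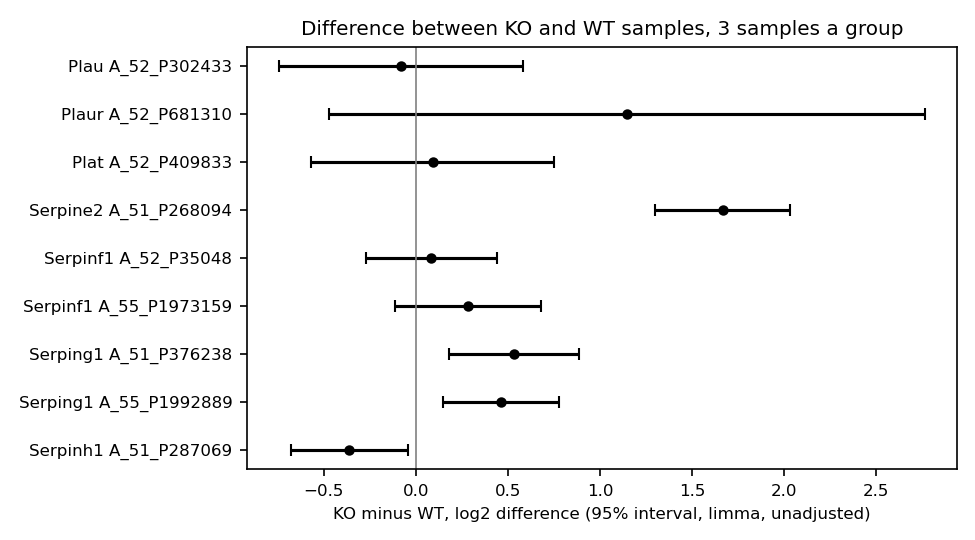
KO minus WT difference in log2 signal (x axis) for each of the 9 probes, with bars for the 95% interval of the limma fit on 3 KO and 3 WT samples, not adjusted for the number of probes. The interval of Serpine2 runs from 1.30 to 2.03, those of both Serping1 probes lie above 0 and that of Serpinh1 lies below 0, while the interval of Plaur is the widest.

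Serping1, the C1 inhibitor, was somewhat higher in KO samples by both probes, without passing the threshold. Probe A_55_P1992889 gave 4.17, 4.10 and 4.30 in KO samples, against 3.72, 3.83 and 3.64 in WT samples. Probe A_51_P376238, across the exon junction, gave 3.30, 3.23 and 3.15 in KO samples, against 2.62, 2.91 and 2.56 in WT samples. With both probes the lowest KO sample lay above the highest WT sample. The differences were 0.46 ± 0.13 (SE, 95% interval 0.15 to 0.78, adjusted p = 0.288 by limma) and 0.53 ± 0.14 (SE, 95% interval 0.18 to 0.89, adjusted p = 0.28 by limma). They correspond to 1.38-fold and 1.45-fold higher signals. By A_55_P1992889 the difference was 0.59 within slide 1 and 0.28 within slide 2. The 2 probes measure the same transcript in the same RNA and are not independent of each other.

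The members that do not inhibit proteases gave no call in either direction. Serpinf1 was at 2.40, 2.25 and 2.26 in KO samples, against 2.24, 2.03 and 2.39 in WT samples, by probe A_52_P35048. The second probe, A_55_P1973159, gave 1.92, 1.66 and 1.98 in KO samples, against 1.66, 1.35 and 1.69 in WT samples. WT sample 2 was the lowest sample by both probes, and the groups overlapped with each. The differences were 0.08 ± 0.15 (SE, 95% interval -0.27 to 0.44, adjusted p = 0.902 by limma) and 0.28 ± 0.16 (SE, 95% interval -0.11 to 0.68, adjusted p = 0.619 by limma). By A_52_P35048 the difference was 0.03 within slide 1 and 0.23 within slide 2, and it was -0.01 without WT sample 2. The upper bounds of these intervals lie below the lower bound of the Serpine2 interval.

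Serpinh1, the collagen chaperone, was the only member whose KO samples all lay below its WT samples. It was at 2.84, 2.95 and 3.01 in KO samples, against 3.39, 3.33 and 3.16 in WT samples. Serpinh1 averaged 2.93 ± 0.09 in KO samples and 3.29 ± 0.12 in WT samples (SD, n = 3 each). The difference was -0.36 ± 0.13 (SE, 95% interval -0.68 to -0.04), a 1.29-fold higher signal in WT samples, and did not pass the threshold (adjusted p = 0.405 by limma). It was -0.44 within slide 1 and -0.30 within slide 2. On single arrays, KO replicate 6 at 3.16 was level with WT replicate 3 at 3.16, so the groups touched before KO arrays were averaged.

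**Figure D3:**
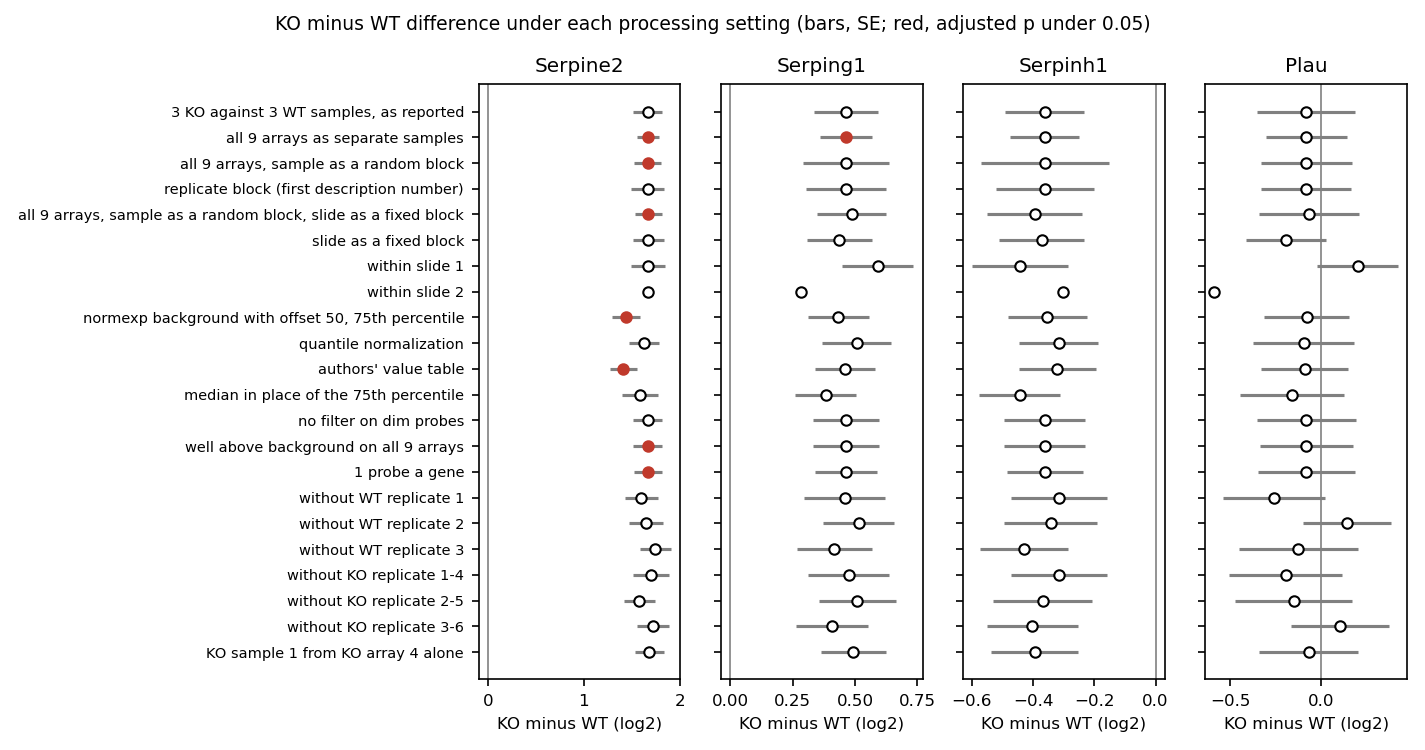
KO minus WT difference in log2 signal (x axis, a different range per panel) for 1 probe each of Serpine2, Serping1, Serpinh1 and Plau under every processing setting (y axis), with bars for the SE and red points for an adjusted p under 0.05. Serpine2 stays between 1.41 and 1.75 with 7 of 20 tested alternatives past the threshold, while Plau lies on both sides of 0.

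Promoter sequence was set beside these values because Polycomb complexes are known, in mammals, to occupy promoters rich in CpG. RefSeq's table for GRCm38.p6 held 4 of the 7 members: Plaur, Serpine2, Serpinf1 and Serpinh1. The 250 bases before the start of the gene with the largest difference, Serpine2 (chr1:79858666-79858915, minus strand), and of a gene with overlapping groups, Serpinf1 (chr11:75422624-75422873, minus strand), are printed with each CpG in capitals.
Serpine2 promoter: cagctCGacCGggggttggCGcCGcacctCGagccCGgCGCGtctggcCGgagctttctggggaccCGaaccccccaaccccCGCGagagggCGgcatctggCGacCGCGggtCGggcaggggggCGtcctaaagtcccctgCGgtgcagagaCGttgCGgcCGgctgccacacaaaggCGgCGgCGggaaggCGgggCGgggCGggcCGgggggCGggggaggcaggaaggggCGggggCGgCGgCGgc
Serpinf1 promoter: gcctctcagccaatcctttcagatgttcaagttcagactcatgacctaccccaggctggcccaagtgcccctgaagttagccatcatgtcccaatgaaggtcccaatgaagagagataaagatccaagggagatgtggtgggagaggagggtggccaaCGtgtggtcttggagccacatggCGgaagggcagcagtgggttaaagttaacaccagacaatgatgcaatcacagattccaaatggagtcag
The motif searched was CG, which reads the same on both strands and cannot overlap itself. Serpine2 held 34 in the 250 bases, and 3.5% of 32851 promoters of the same length held as many or more. Serpinf1 held 2, Plaur 6 and Serpinh1 11, against a median of 6 over all promoters. The 2 promoters printed were picked with the differences known, and they hold the most and the fewest of the 4. Serpinh1, with a lower signal in KO samples, lay above the median. The GC content was 78.8% for Serpine2 and 51.6% for Serpinf1, against a median of 52.4%. These counts describe the sequence only, since no binding or methylation was measured in these samples.

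Other genes of and around the plasminogen system held no call in the fit of 1 probe a gene. The list holds plasminogen itself, its receptors and modulators. It also holds coagulation genes such as F2 and F3, and growth factors such as Hgf and Pdgfd. Of 36 genes listed, 30 were measured, 18 with a difference above 0 and 12 below, and their median was 0.06, against -0.02 over all 28365 features. It lay between -0.02 and 0.16 over the other settings. At an unadjusted p under 0.05 there were 5 higher and 1 lower in KO samples, against 11% of all features (6.73% higher and 4.24% lower). The smallest p belonged to Pdgfd, a growth factor that is activated by plasminogen activators, at 1.29 ± 0.39 (SE, adjusted p = 0.307 by limma). Lgals3, a galectin, was at 1.30 ± 0.40 (adjusted p = 0.311), Vldlr, a lipoprotein receptor that also takes up urokinase complexes, at -0.76 ± 0.23 (adjusted p = 0.313) and Itgb3, an integrin subunit, at 0.69 ± 0.26 (SE, adjusted p = 0.412 by limma). Plg, plasminogen, named after its values were seen, was well above background on 5 of 9 arrays, with a difference of -1.08 ± 0.85 (SE, adjusted p = 0.733 by limma). Serpinb2, Serpinf2, Mst1r and F12 were not well above background on any array.

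Among the other serpins, the genes past an unadjusted threshold all had higher signals in KO samples. Of 46 listed, 43 are on the array and 25 were measured, 14 with a difference above 0 and 11 below, with a median of 0.02 that lay on both sides of 0 over the other settings (-0.06 to 0.31). At an unadjusted p under 0.05 there were 8 higher and 0 lower, against 6.73% and 4.24% of all features, and 10 genes had KO samples that all lay above the WT samples, against 8.57% of all features. Serpina3i, in both counts and named after its values were seen, was well above background on 6 KO arrays and 1 WT array. Its place in these counts is therefore tied to the filter. Serpina1c, an alpha-1 antitrypsin gene, was the 1 gene called, against 0.137% of all features. It was at -1.83, -1.23 and -1.69 in KO samples, against -4.23, -4.45 and -3.72 in WT samples. All KO samples lay well above all WT samples, and the difference was 2.55 ± 0.25 (SE, adjusted p = 0.0456 by limma). Serpina1a (1.94 ± 0.21, adjusted p = 0.0557 by limma) and Serpina1d (1.61 ± 0.24, adjusted p = 0.0883 by limma) are close copies of Serpina1c, so their probes may share targets and do not count as separate evidence. The same holds for Serpina1e, named after its values were seen, at 2.35 ± 0.40 (SE, adjusted p = 0.11 by limma). All of these copies are among the 8 and the 10 genes. Serpinb1a, an inhibitor of neutrophil proteases, was at 1.62 ± 0.25 (SE, adjusted p = 0.098 by limma). The 10 genes also include Serpinb1a with Serpinb1c and Serpinb6a with Serpinb6c, the last 3 named after their values were seen. Within each of these pairs the probes may likewise share targets.

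Of the matrix metalloproteinases, some of which plasmin can activate, and their TIMP inhibitors, 13 of 17 were measured, 11 with a difference above 0 and 2 below, with a median of 0.34. Mmp19, named after its values were seen, was well above background on 5 KO arrays and 0 WT arrays, and Mmp16 on 5 KO arrays and 1 WT array. Both passed the filter through the KO group, so their place among the 11 is tied to that filter. At an unadjusted p under 0.05 there were 3 higher, Mmp16 among them, and 0 lower, against 6.73% and 4.24% of all features. Timp3, an inhibitor that binds to the matrix, was the only one called, against 0.137% of all features. It was at 1.33, 0.99 and 0.96 in KO samples, against -0.44, -0.53 and -0.61 in WT samples. The groups lay far apart, with a difference of 1.61 ± 0.15 (SE, adjusted p = 0.0441 by limma). Mmp9, a gelatinase named after its values were seen, was not well above background on any array.

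The complement and contact genes around Serping1 had the highest median of the related lists, at 0.61. Of 26 genes 20 were measured, 15 with a difference above 0 and 5 below. At an unadjusted p under 0.05 there were 8 higher and 0 lower, against 6.73% and 4.24% of all features. The 8 include C1s1 (0.825) and C1s2 (0.774), named after their values were seen, whose probes may share targets and may not count as separate evidence. Cfb, factor B of the alternative pathway, was the 1 gene called, against 0.137% of all features. It was at -0.93, -1.32 and -1.23 in KO samples, against -2.69, -3.11 and -3.01 in WT samples, a difference of 1.78 ± 0.18 (SE, adjusted p = 0.0456 by limma). C2, the classical pathway counterpart of factor B, was at 2.26, 2.26 and 2.34 in KO samples, against 0.33, 1.12 and 1.21 in WT samples, and did not pass (1.40 ± 0.25 SE, adjusted p = 0.115 by limma). The median of this list was 0.84 within slide 1 and 0.35 within slide 2.

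The calls of Serpina1c, Timp3 and Cfb did not outlast the removal of a sample. Leaving out any 1 sample kept their differences at 2.37 to 2.76, 1.49 to 1.68 and 1.66 to 1.90, in that order of genes. The adjusted p then lay at 0.0851 or above for all 3 (limma), and with the slide as a block it was 0.107 for each of them. Within slide 1 the differences were 2.41 for Serpina1c, 1.66 for Timp3 and 1.82 for Cfb, and within slide 2 they were 2.84, 1.57 and 1.83.

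The collagens and collagen folding genes, around the chaperone Serpinh1, lay on both sides of 0 as 1 list. Of 41 genes 39 were measured, 18 with a difference above 0 and 21 below, with a median of -0.01 and no call. Every collagen on the list had a difference above 0, from 0.03 for Col3a1 to 1.91 for Col1a1. The genes below 0 were all among the remaining genes, which lay on both sides of 0. This split was made after the values were seen. At an unadjusted p under 0.05 there were 7 higher and 0 lower, against 6.73% and 4.24% of all features. Col1a1, a chain of type I collagen and so of a main client of HSP47, was at 3.31, 3.29 and 4.00 in KO samples, against 1.24, 1.82 and 1.80 in WT samples. All KO samples lay above the WT samples, with a difference of 1.91 ± 0.26 (SE, adjusted p = 0.0784 by limma). Col1a2, the partner chain, was at 1.23 ± 0.19 (SE, adjusted p = 0.0894 by limma). The folding enzyme Fkbp14 was at 0.72 (adjusted p = 0.11 by limma), and the basement membrane chain Col4a2 was at 0.43 (adjusted p = 0.307 by limma). Of 5 genes described as receptors of Serpinf1, none was called, and the smallest p was that of Plxdc1 at 0.77 (adjusted p = 0.202 by limma), followed by Plxdc2 at 0.36, Pnpla2 at 0.27 and Rpsa at -0.10.

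**Figure D4:**
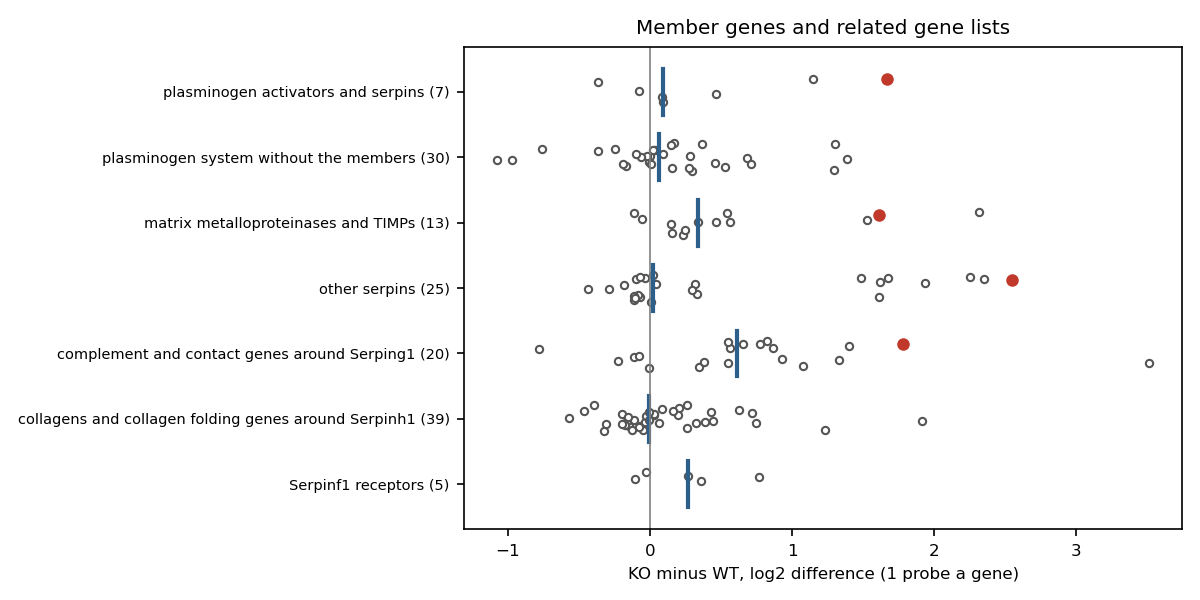
KO minus WT difference in log2 signal (x axis, 1 probe a gene) for the 7 member genes and the genes of each related list (y axis, measured genes in parentheses), with red points for an adjusted p under 0.05 and a blue bar for the median of the list. Called genes are Serpine2, Timp3, Serpina1c and Cfb. The medians run from -0.01 for the joint list of collagens and collagen folding genes to 0.61 for complement genes.

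The pattern over the 6 samples was compared with that of 15030 other named genes, well above background on all arrays, for the 2 members whose samples spanned over 1 log2 unit. Likeness was the root mean square difference of log2 values after centring each gene, which looks at the shape and size of the pattern and not at its level. Closest to Serpine2 were Cdc42ep3 (0.176), Gldn (0.181) and Carns1 (0.183), with KO minus WT differences of 1.54, 1.69 and 1.44. Closest to Plaur were Pdgfb (0.26), Ebf2 (0.368) and Vit (0.39), at larger distances. These neighbours are a description over 6 samples in 2 groups.

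Markers of satellite cells differed little as a list, with a median of 0.09 over 12 measured genes (0.05 without KO sample 2 and 0.15 without KO sample 3). Their summed signal was 117 to 119 in KO samples and 113 to 126 in WT samples, in units of the 75th percentile signal. All 12 were well above background on all 9 arrays. Among them, 8 had a difference above 0 and 4 below. The difference was -0.26 for Fgfr4, -0.33 for Chrdl2, 0.11 for Vcam1 and 0.20 for Cdh15, and none of these passed the threshold. The largest differences, named after their values were seen, were 0.75 for Sdc4 (adjusted p = 0.107 by limma), 0.66 for Myf5 and 0.56 for Msc. None of these passed either, and for Sdc4 and Msc all KO samples lay above the WT samples. Markers in these lists were picked for naming by mean signal, which does not order the amounts of their transcripts. The medians of most lists for other cells of muscle lay above 0, as the Serpine2 and Serping1 differences did. The median was 0.72 for 15 mesenchymal markers, 12 of them with a difference above 0, and their summed signal was 147 to 159 in KO samples and 121 to 132 in WT samples. Pdgfra, one of the 12 and named after its values were seen, was well above background on 6 KO arrays and 0 WT arrays, so it passed the filter through the KO group alone. Dcn was at 4.58, 4.39 and 4.43 in KO samples, against 3.27, 3.83 and 3.52 in WT samples, a difference of 0.92 that did not pass the threshold. The other named markers differed less, with 0.03 for Col3a1, 0.20 for Gsn and -0.18 for Thy1.

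All 12 measured mural markers had a difference above 0, with a median of 0.49 and a summed signal of 78.2 to 83.9 in KO samples and 68.4 to 73.1 in WT samples. That median was 0.34 without KO sample 1 and 0.83 without KO sample 2. The summed signal of this list came mainly from Notch3, Acta2 and Des. Their means were 4.946, 4.762 and 3.743 in KO samples and 4.85, 4.565 and 3.691 in WT samples, in that order. The sum therefore says little about the other mural markers. The named markers differed by 0.10 for Notch3, 0.20 for Acta2, 0.05 for Des and 0.32 for Tagln, and none of these passed the threshold. Pdgfrb, a receptor of pericytes named after its values were seen, was called at 1.35 ± 0.11 (SE, adjusted p = 0.0376 by limma), but not when any 1 sample was left out (0.092 to 0.144). It was the 1 mural marker called, against 0.137% of all features. Of 11 Schwann and glial markers 10 had a difference above 0, with a median of 0.74 and a summed signal of 65.3 to 68.7 in KO samples and 51.9 to 61.5 in WT samples. Pmp22 differed by 0.11 and Ngfr by -0.35, while Mbp was at 2.46, 2.47 and 2.41 in KO samples, against 1.40, 0.76 and 1.05 in WT samples, and none of these passed the threshold.

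All 12 measured endothelial markers had a difference above 0, with a median of 0.77 and a summed signal of 5.82 to 8.79 in KO samples and 4.42 to 5.62 in WT samples. That median was 0.40 without KO sample 1, and it was 0.95 within slide 1 and 0.37 within slide 2. The named markers differed by 0.17 for Tek, 0.17 for Kdr, 0.57 for Egfl7 and 1.12 for Esam, none past the threshold. Of the 12 endothelial markers, 3 lacked a signal well above background on at least 1 array, and all 3 had a difference above 0. Tie1, among these 3 and named after its values were seen, was well above background on 4 KO arrays and 1 WT array. It passed the filter through the KO group, so its place among the 12 is tied to that filter. Sox17 was not well above background on any array. Among 7 tenocyte markers, 6 had a difference above 0, with a median of 1.34 and a summed signal of 8.44 to 22.1 in KO samples and 5.57 to 6.53 in WT samples. Their KO samples differed widely: Comp was at -1.60, 0.74 and 3.18 in KO samples, against -2.50, -3.87 and -3.09 in WT samples, while Scx was at 1.88, 1.53 and 1.85 in KO samples, against 1.88, 1.57 and 1.95 in WT samples. Fmod was at -3.07, -0.49 and 0.71 in KO samples, against -5.57, -3.05 and -3.24 in WT samples. Thbs4 differed by 1.34, and none of these passed the threshold. Of the 7 tenocyte markers, 3 were not well above background on all 9 arrays, and all 3 had a difference above 0. The tenocyte median was 0.52 without WT sample 1 and 2.18 without KO sample 1, and it was 1.53 within slide 1 and 0.59 within slide 2.

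Of 13 macrophage and leukocyte markers 2 had a difference above 0 and 11 below, with a median of -0.15 and a summed signal of 121 to 134 in KO samples and 124 to 144 in WT samples. That median was -0.04 without WT sample 1, -0.10 without KO sample 1 and -0.26 without WT sample 3. The named markers differed by -0.08 for Itgam, -0.07 for Csf1r, -0.02 for Cd3e and 0.45 for Cd68, none past the threshold. The summed signal of this list came mainly from 1 Itgam probe, with a mean of 6.945 in KO samples and 7.024 in WT samples. Csf1r, next by mean, was at 2.199 and 2.266, and all other measured markers averaged below 0 in both groups. The sum therefore says little about the other markers on the list. Lyz2 and Ms4a1 were not well above background on any array. Among 9 myonuclear markers 4 had a difference above 0 and 5 below, with a median of -0.16 and a summed signal of 7.78 to 17.1 in KO samples and 6.4 to 11.8 in WT samples. The sign of that median turned to 0.27 without KO sample 2, 0.06 without WT sample 3 and 0.57 within slide 2. Acta1 differed by 0.19, Tnnt3 by 1.07, Ttn by -0.16 and Pvalb by -1.17, none past the threshold. Several of these other cell types are known to express Serpine2, Serping1 or Serpinf1, and the part of cell makeup in the differences was not tested.

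**Figure D5:**
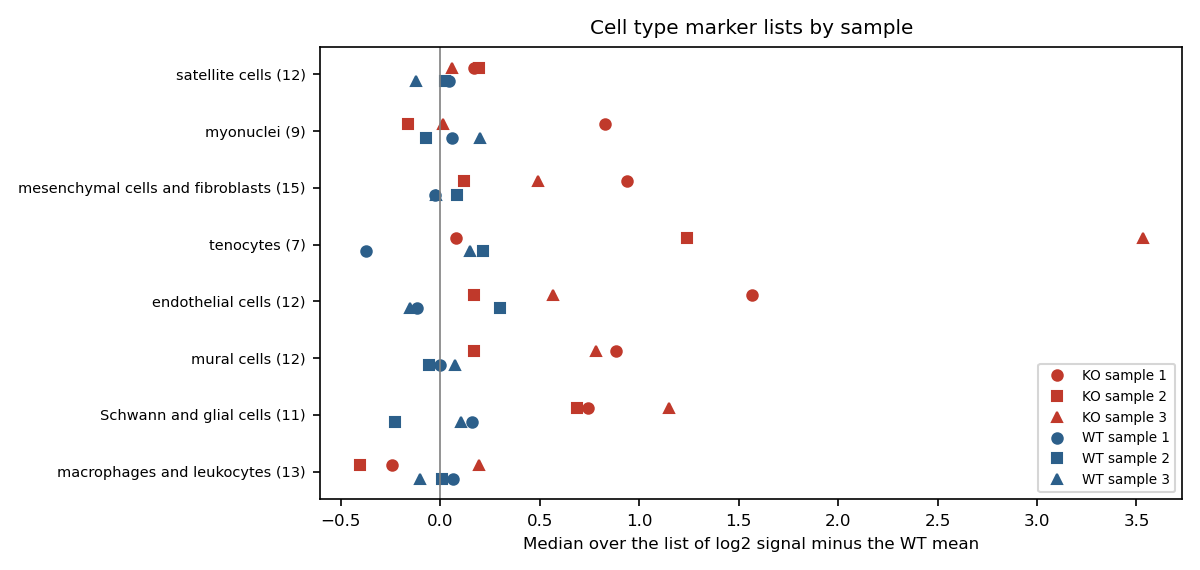
Median over each marker list (y axis, measured genes in parentheses) of the log2 signal minus the WT mean of the gene (x axis), with 1 symbol per sample, KO in red and WT in blue. All 3 KO samples lie above 0 for mesenchymal, tenocyte, endothelial, mural, Schwann and satellite cell markers, with KO sample 3 at 3.53 for tenocytes. KO sample 2 is at 0.19 for satellite cells, above its 0.12 for mesenchymal, 0.17 for endothelial and 0.17 for mural markers.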

How the data were processed

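Per the file headers, the authors deposited spot intensity on a linear scale, made by Agilent Feature Extraction 10.7.3.1, which subtracted background, gave dim spots a small surrogate value and did not normalize arrays to each other. By its range, a second table deposited by the authors holds log2 values. How it was made is not stated. Each of its 9 columns matched its own array best after normexp with an offset of 50 and quantile normalization, and it served as an alternative.

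Spots marked as outliers (93 to 148 on an array) were dropped, processed signals were put on the log2 scale, and the 75th percentile of each array was subtracted. This left 35 empty probe values, none in the 9 probes reported, which took the mean of that probe on the remaining arrays. A probe was kept if 3 or more of 9 arrays had it well above background. Names were updated through RefSeq (26300 probes by accession, 2044 by symbol, 355 by synonym), and 26982 were left as named on the array.

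The comparison of KO with WT used limma 3.58.1 (lmFit, eBayes) under R 4.3.3 (data.table, version 1.17.8, statmod 1.5.0), with 4 residual and 1.992 prior degrees of freedom and Benjamini-Hochberg adjustment over 42983 probes. Lists used 1 probe a gene, the kept probe of highest mean, over 28365 features. Exact permutation tests were two-sided over 20 splits. Python 3.11.15 with pandas 2.3.3, numpy 2.4.6 and matplotlib 3.10.9 read files and drew plots. Precision is limited by the number of arrays. The fit was tested on simulated data. The members and lists were chosen with earlier results of these data known.

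All member probes were named, of each related list the called genes and otherwise up to 4 of smallest p, of each marker list up to 4 of highest mean and those not well above background anywhere, and 3 genes most like a member. Alternatives were the arrays counted separately or as a random block, the slide, the replicate block, the background correction, the scaling, the filter, 1 probe a gene, and leaving out each sample. A KO sample 1 from replicate 4 alone was chosen after seeing the data. Some genes that the rule names are not reported here.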

Additional observations from a re-analysis of the deposited data

How the results depend on the processing

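The Serpine2 difference stayed between 1.41 and 1.75 under the 21 alternatives tried, and passed the adjusted threshold of limma in 7 of the 20 with a test: 1.66 with 9 separate arrays (adjusted p = 0.000389), 1.66 with a random block for the sample (0.00174), 1.67 with that block and the slide (0.00691), 1.44 with normexp (0.0137), 1.41 in the authors' table (0.0262), 1.66 among probes well above background on all arrays (0.0364) and 1.66 with 1 probe a gene (0.0431). Fits of separate arrays take degrees of freedom from arrays that share a sample, so their p may be too small. Leaving out each sample gave 1.58 to 1.75 (adjusted p = 0.112 to 0.185). Serping1 passed only with 9 separate arrays (0.46, adjusted p = 0.0449 by A_55_P1992889). Plau turned to 0.20 within slide 1, and leaving out each sample gave -0.26 to 0.15 for Plau, -0.10 to 0.38 for Plat and -0.01 to 0.17 for Serpinf1 by A_52_P35048. Within slide 2, with 1 WT array and no test, the values were -0.59 for Plau, -0.11 for Plaur, 0.23 for Serpinf1 and 0.28 for Serping1. The cause of these turns was not tested.

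The number of probes called, 21 as reported, was 1639 with 9 separate arrays, 610 with the random block, 364 with that block and the slide, 1 with the slide as a block, 282 with normexp, 208 in the authors' table, 62 with the filter on all arrays and 39 with 1 probe a gene. Leaving out each sample gave 0 to 3. Within slide 1 it was 0 by limma (4335 at an unadjusted p under 0.05). With the replicate block it was 0 by limma (4361 at an unadjusted p under 0.05), and Serpine2 was 1.66 (adjusted p = 0.227). Deviations of KO and WT samples with the same number correlated at -0.027, 0.015 and 0.019, so no shared shift over probes was seen. Whether the shared numbers pair KO with WT samples in another way is not stated in the labels. Scaling on the array median moved the median of all probes from -0.012 to -0.094 and changed no sign among the 9 probes. Plaur, near background, has the least certain size.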
